A study of Mus musculus with 6 samples.

Results

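The counts of 30 genes of fatty acid oxidation, in mitochondria and in peroxisomes, were examined in adipocytes with and without *Lats1/2* deletion. The genes were chosen by symbol as the rows of the count table that carry the names of the enzymes, transporters and electron carriers of the pathway, and all 30 were found among the 37384 symbols in the table. RNA came from floated adipocytes of inguinal scWAT of male mice at P7, and each library was made from a pool of 4 mice. The 3 L1L2-FF libraries came from mice with floxed alleles of both genes and no Cre (*Lats1* f/f, *Lats2* f/f). The 3 L1L2-AKO libraries came from mice with the same floxed alleles and Cre recombinase under the *Adipoq* promoter, which is active in adipocytes from their differentiation onward. Both groups therefore share the floxed alleles and differ by Cre and the deletion together. LATS1 and LATS2 are the kinases of the Hippo pathway that restrain the transcriptional cofactors YAP and TAZ. The comparison asked which genes of fatty acid oxidation differed in mRNA level between the genotypes.

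Fatty acids enter the mitochondrial matrix as carnitine esters and are then shortened in a repeating spiral of dehydrogenation, hydration, a further dehydrogenation and thiolysis. Peroxisomes take in very long-chain and branched fatty acids, shorten them with an oxidase in place of the first dehydrogenase, and pass the products on to mitochondria. White adipocytes are known mainly for storing and releasing fatty acids, while brown and beige adipocytes oxidize them to produce heat.

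Total counts ranged from 30548473 to 32107917 per library. *Lats1* had 76.1, 94.3 and 78.4 CPM (counts scaled to library size, TMM-normalized) in the L1L2-FF libraries and 38.9, 41.2 and 40.5 CPM in the L1L2-AKO libraries (log2 fold change -1.04 with a standard error of 0.118, adjusted p = 0.00131). *Lats2* went against its label, with 75.0, 85.7 and 68.5 CPM in L1L2-FF and 96.2, 126.5 and 135.4 CPM in L1L2-AKO (log2 fold change 0.64 ± 0.156, adjusted p = 0.0278), a call that was lost when any of 4 single libraries was left out (adjusted p up to 0.104). By RT-qPCR of adipocytes isolated from scWAT at P7, the paper reported a reduction of both *Lats1* and *Lats2* mRNA in L1L2-AKO. A count over the whole gene does not show whether the floxed part is missing. Of the 50-base stretches of *Lats2*, 41.2% also occur in *Gm49361*, a gene model that overlaps it and has no row in the count table. L1L2-AKO therefore stands below for the libraries labelled L1L2-AKO. The 12 mature adipocyte markers held 0 higher and 5 lower genes, with *Adipoq* at 1720 to 2396 CPM in L1L2-FF and 695.5 to 1036 CPM in L1L2-AKO, and none was at 0. Their log2 fold changes were mixed, from -4.14 for *Cfd* to 0.41 for *Lep*. *Plin4* (0.00062) and *Cidec* (-0.0061) stayed level, and *Fabp4* (-0.30) overlapped between the genotypes. All 12 macrophage markers were higher in L1L2-AKO, and their summed level was 269 to 529 CPM in L1L2-FF and 989 to 1108 CPM in L1L2-AKO. The 10 brown or beige adipocyte markers held 3 lower genes, with summed levels of 399 to 779 CPM and 301 to 451.5 CPM. Skeletal muscle markers, another source of oxidation genes, had 0 of 7 tested genes past the threshold and summed to 99.4 to 150 CPM and 63.3 to 79.5 CPM. Endothelial, mural, adipose progenitor and Schwann cell markers held 1 of 12, 3 of 10, 2 of 12 and 4 of 10 lower genes and 0, 1, 1 and 1 higher, and lymphocyte, epithelial and red cell markers held 0 in either direction. For all these lists, the shares over all genes tested were 7.18% lower and 9.28% higher. In bulk RNA of this kind, fewer cells of a type and less RNA per cell cannot be told apart.

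Fatty acid oxidation genes were lower in L1L2-AKO adipocytes at most steps of the pathway. Of the 30 genes, 15 were lower and 0 were higher at an adjusted p under 0.05 (the quasi-likelihood test of edgeR, adjusted over 15674 genes by the Benjamini-Hochberg method), while 7.18% of all genes tested were lower and 9.28% were higher. The median log2 fold change of the 30 genes was -0.53, and that of all genes tested was -0.02. The list was chosen with earlier results of these data known, so its contrasts with all genes tested are no independent result. The fit put 29 of the 30 genes below 0 and *Cpt1a* above it, as the 1 gene of the list that was higher at an unadjusted p under 0.05, and DESeq2 and limma-voom also called 0 of the 30 genes higher. All 3 L1L2-AKO libraries lay below all 3 L1L2-FF libraries for 22 of the 30 genes, against 18.4% of all genes tested, and above them for 1 gene, against 18.0%. Summed over the 30 genes, the level was 9058, 7809 and 10540 CPM in L1L2-FF and 5855, 6250 and 5897 CPM in L1L2-AKO, so the 3 L1L2-AKO sums lay close together and under the lowest L1L2-FF sum. The 5 lower of the 12 adipocyte markers and the higher macrophage markers described above moved with this result, and their part in it was not tested. The number of lower genes was 7 when L1L2-FF replicate 1, L1L2-AKO replicate 1 or L1L2-AKO replicate 3 was left out, 9 without L1L2-AKO replicate 2 and 21 without L1L2-FF replicate 2.

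**Figure D1:**
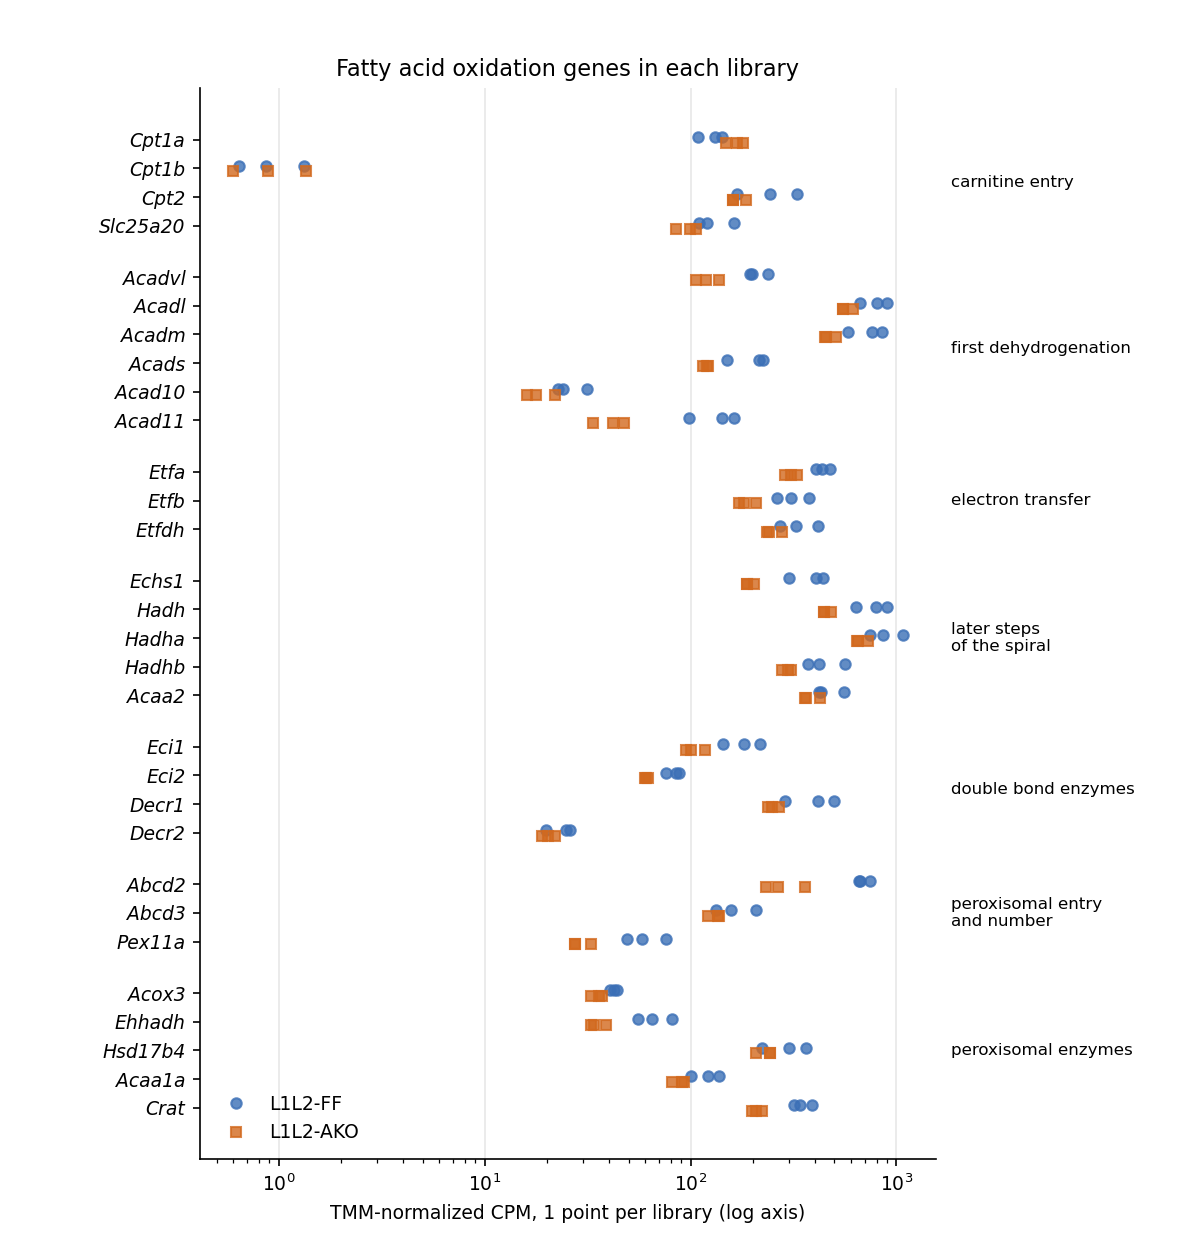
Level of each of the 30 genes in each library, as TMM-normalized CPM on a log axis, with 1 point per library, circles for L1L2-FF and squares for L1L2-AKO, and genes grouped by their step in the pathway. For 22 genes all squares lie to the left of all circles, for *Cpt1a* all lie to the right, and *Cpt1b* lies near 1 CPM in every library.

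The first pair to show is *Hadha* and *Hadhb*, which encode the alpha and beta subunits of the mitochondrial trifunctional protein and are transcribed away from each other on chromosome 5 with 85 bases between their annotated starts. Those 85 bases are shown with the sequence before the start of 3 genes with large falls, so that the letters searched for can be read. These examples do not stand for the list. All are written 5′ to 3′ from mm10 within RefSeq's promoter windows (GRCm38.p6), on the strand of the gene (for the shared stretch, that of *Hadhb*), and hold no annotated exon. Capitals mark GGGCGG (the GC box), GGAATG (a site of TEAD factors, the DNA-binding partners of YAP and TAZ) and AGGTCA (a nuclear receptor half-site) on either strand. The stretch before *Acad11*, the gene with the largest fall, is not printed. It held 1 GC box and no TEAD site or half-site.
Hadha and Hadhb, chr5:30155163-30155247, plus strand: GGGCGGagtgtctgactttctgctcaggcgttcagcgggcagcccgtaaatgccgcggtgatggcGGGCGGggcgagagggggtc
Pex11a, chr7:79743184-79743381, minus strand: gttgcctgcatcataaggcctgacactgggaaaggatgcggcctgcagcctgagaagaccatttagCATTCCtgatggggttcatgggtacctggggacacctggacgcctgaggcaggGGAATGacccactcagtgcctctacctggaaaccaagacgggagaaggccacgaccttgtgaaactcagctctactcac
Echs1, chr7:140116477-140116671, minus strand: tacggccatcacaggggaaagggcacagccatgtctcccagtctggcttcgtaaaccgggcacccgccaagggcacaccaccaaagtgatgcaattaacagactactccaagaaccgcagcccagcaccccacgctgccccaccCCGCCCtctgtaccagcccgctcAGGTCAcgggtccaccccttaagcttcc
Ehhadh, chr16:21787808-21788084, minus strand: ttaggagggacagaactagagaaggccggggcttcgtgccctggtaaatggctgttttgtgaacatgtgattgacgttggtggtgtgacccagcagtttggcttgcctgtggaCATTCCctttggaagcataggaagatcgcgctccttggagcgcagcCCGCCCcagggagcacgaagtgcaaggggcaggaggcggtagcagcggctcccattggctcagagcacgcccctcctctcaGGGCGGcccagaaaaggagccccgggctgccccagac

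RefSeq's windows of 250 bases before to 50 bases after the start were at hand for 24 of the 30 genes. GGGCGG occurred in the windows of 19 of the 24 genes (79.2%) and in 35.7% of all 32851 windows of that length. GGAATG occurred for 6 of the 24 genes (*Acox3*, *Cpt1a*, *Ehhadh*, *Etfb*, *Pex11a* and *Slc25a20*), against 14.7% of all windows, and 3 of those 6 genes were lower in L1L2-AKO. AGGTCA occurred for *Acadm*, *Acadvl*, *Cpt1a* and *Echs1*, which is 16.7% of the 24 genes, against 16.3% of all windows. CCAAT occurred for 9 of the 24 genes (37.5%), against 37.4% of all windows, and the palindrome of the mitochondrial gene regulator NRF1 for *Acad10* and *Etfdh*, against 0.971%. The direct repeat AGGNCANAGGNCA, the form bound by PPAR with RXR, occurred for 0 of the 24 genes and in 0.381% of all windows. TCAAGGTCA, TGACGTCA and CACGTG, the letters of the ERR site, the cAMP response element and the E-box, also occurred for 0 of the 24 genes, against 0.423%, 1.79% and 7.15% of all windows. Both strands were searched, every TCAAGGTCA also holds AGGTCA, and a match is only an occurrence of these letters. Shares for the 24 genes, which had 25 windows, were per gene, while those for all windows were per window. Base composition was not matched between the 2 sets, so its part in these shares was not tested.

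Of the 4 genes that carry fatty acids into mitochondria as carnitine esters, 0 passed the threshold in either direction. Among all genes tested, 7.18% were lower and 9.28% higher, so 0 of 4 does not set this step apart. The median log2 fold change of the 4 genes was -0.22. CPT1 on the outer membrane makes the carnitine ester, Slc25a20 carries it across the inner membrane and CPT2 turns it back into an acyl-CoA. *Cpt1a*, chosen here for its direction after the values were seen, had 109, 143 and 131 CPM in L1L2-FF and 169, 148 and 179 CPM in L1L2-AKO. The groups did not overlap, but the log2 fold change of 0.37 ± 0.140 did not pass the threshold (adjusted p = 0.110). *Cpt1b*, the muscle and brown fat form, was low, at 20 to 43 counts per library. Of its 50-base stretches, 78.6% also occur in the readthrough model *Gm44502*, which has no row in the count table. *Cpt2* had a log2 fold change of -0.54 ± 0.225, with 169 to 328 CPM in L1L2-FF and 160 to 186 CPM in L1L2-AKO, and passed in 1 of the 14 alternatives run, that without L1L2-FF replicate 2, its lowest control (adjusted p = 0.0169). *Slc25a20* ranged from 110 to 163 CPM and from 85.4 to 107 CPM without overlap (log2 fold change -0.43 ± 0.169, adjusted p = 0.124). The falls of *Cpt2* and *Slc25a20* were near in size to those of *Etfa* (-0.51 ± 0.129) and *Eci2* (-0.44 ± 0.104), which passed the threshold with smaller standard errors. *Cpt1a* and *Cpt1b*, at 0.37 and -0.00042, did not go with them. Per length of exon, *Cpt1a* stood at 0.140, 0.265 and 0.125 of *Cpt2* in L1L2-FF and at 0.284, 0.289 and 0.348 of it in L1L2-AKO. The 3 L1L2-AKO ratios were higher than the 3 L1L2-FF ratios, which gives the smallest p that an exact two-sided permutation test of 3 against 3 allows (p = 0.1, and 0.1 adjusted over 3 ratios). This ratio was chosen with the values of both genes known, so its p is no evidence of a difference.

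The acyl-CoA dehydrogenases, which start each turn of the spiral, were lower for 4 of 6 genes, and the L1L2-AKO libraries lay below the L1L2-FF libraries for all 6. Over all genes tested these shares were 7.18% and 18.4%. *Acad11* (chr9:104063377-104127725 in mm10, plus strand), an acyl-CoA dehydrogenase that also acts on hydroxy acids, showed the largest fall of the 30 genes. Its level was 142.5, 163 and 98.4 CPM in L1L2-FF and 33.5, 42.1 and 47.6 CPM in L1L2-AKO. The highest L1L2-AKO library was thus well below the lowest L1L2-FF library, and the log2 fold change was -1.71 ± 0.211 (adjusted p = 0.00183), or 30.5% of the L1L2-FF level.

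*Acadvl*, the dehydrogenase of very long chains bound to the inner membrane, had 195, 199.5 and 237 CPM in L1L2-FF and 118.5, 137 and 106.5 CPM in L1L2-AKO (log2 fold change -0.80 ± 0.140, adjusted p = 0.00742). Of its exon bases, 42.9% overlap *Dvl2* on the opposite strand, which was counted at 12.2 to 15.8 CPM in all libraries with a log2 fold change of 0.02. *Acadm*, the medium-chain enzyme, had 763, 580 and 853 CPM in L1L2-FF and 456, 508 and 448 CPM in L1L2-AKO (log2 fold change -0.64 ± 0.173, adjusted p = 0.0411). *Acads*, the short-chain enzyme, had 215, 150 and 226 CPM in L1L2-FF and 120, 115 and 121 CPM in L1L2-AKO (log2 fold change -0.73 ± 0.164, adjusted p = 0.0205). For these 3 genes the groups stayed apart, and the nearest control of *Acadm* and *Acads* was L1L2-FF replicate 2. *Acadm* lost its call when any library other than L1L2-FF replicate 2 was left out (adjusted p up to 0.137), and *Acads* lost it without L1L2-FF replicate 1 or without any of the L1L2-AKO libraries (up to 0.0882). *Acadl*, the long-chain enzyme, was the most abundant of the 30 genes per length of exon. It had 803, 663 and 899 CPM in L1L2-FF and 548, 614 and 551 CPM in L1L2-AKO, without overlap, and its log2 fold change of -0.47 ± 0.158 missed the threshold (adjusted p = 0.0832). It passed in 2 of 14 alternatives, DESeq2's test and without L1L2-FF replicate 2 (adjusted p = 0.0309 to 0.2205 over the left-out fits). *Acad10* was low, at 22.7 to 31.4 CPM and 16.1 to 21.9 CPM (log2 fold change -0.49, adjusted p = 0.0970), and shares 16.8% of its 50-base stretches with *Acad12*.

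The dehydrogenases hand their electrons to the flavoprotein ETF, whose subunits *Etfa* and *Etfb* encode, and ETF hands them to the respiratory chain through *Etfdh*. Both subunit genes were lower. *Etfb* had 307, 262 and 377 CPM in L1L2-FF and 181, 208 and 171 CPM in L1L2-AKO (log2 fold change -0.76 ± 0.163, adjusted p = 0.0177). *Etfa* had 433, 405 and 476.5 CPM in L1L2-FF and 287, 328 and 306 CPM in L1L2-AKO (log2 fold change -0.51 ± 0.129, adjusted p = 0.0317). The libraries of the genotypes did not overlap for either subunit. *Etfdh* overlapped between the genotypes, at 272 to 417 CPM and 235.5 to 278 CPM, with a log2 fold change of -0.42 ± 0.175 (adjusted p = 0.143, and 0.0461 without L1L2-FF replicate 2). *Etfb* lost its call without L1L2-FF replicate 1, L1L2-AKO replicate 1 or L1L2-AKO replicate 3 (adjusted p up to 0.0786), and *Etfa* lost it in every left-out fit but that without L1L2-FF replicate 2 (up to 0.105). Of the 50-base stretches of *Etfb*, 43.8% also occur in the overlapping model *Gm45233*. That model has no row in the count table, so no reads were counted under its name.

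Later steps of the spiral were lower for 3 of 5 genes, against 7.18% of all genes tested, with a median log2 fold change of -0.62. *Echs1* (chr7:140105710-140116476), the hydratase of short chains, fell the most among them. It had 408.5, 301 and 438 CPM in L1L2-FF and 203, 189 and 189 CPM in L1L2-AKO, a log2 fold change of -0.98 ± 0.161 (adjusted p = 0.00577). The 3 L1L2-AKO libraries were close to each other, and their fitted level was 50.6% of that in L1L2-FF. *Hadh*, the hydroxyacyl-CoA dehydrogenase of shorter chains, had 792, 635 and 902 CPM in L1L2-FF and 442.5, 482 and 444.5 CPM in L1L2-AKO (log2 fold change -0.77 ± 0.163, adjusted p = 0.0167). *Hadhb* had 419, 370 and 565 CPM in L1L2-FF and 296, 307 and 277 CPM in L1L2-AKO (log2 fold change -0.62 ± 0.175, adjusted p = 0.0465). Its partner *Hadha*, from the other side of the 85 bases shown above, was not past the threshold, at 741 to 1070 CPM and 642 to 727 CPM (log2 fold change -0.41 ± 0.172, adjusted p = 0.153), although its groups did not overlap. Per length of exon, *Hadha* stood at 1.55, 1.51 and 1.43 times *Hadhb* in L1L2-FF and at 1.66, 1.79 and 1.75 times in L1L2-AKO, with every L1L2-AKO ratio above every L1L2-FF ratio (exact two-sided permutation p = 0.1, the smallest possible). *Hadhb* shares 18.1% of its 50-base stretches with *Gm13910*, which has no row in the count table.

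*Acaa2*, the thiolase that closes the turn, ranked next to *Acadl* per length of exon and overlapped between the genotypes, with 431, 421 and 555 CPM in L1L2-FF and 358, 425 and 362 CPM in L1L2-AKO (log2 fold change -0.30 ± 0.157, adjusted p = 0.250). L1L2-AKO replicate 2 thus reached the level of the lower L1L2-FF libraries. *Hadh* lost its call without L1L2-FF replicate 1 or any of the L1L2-AKO libraries (adjusted p up to 0.0706), and of the left-out fits *Hadhb* kept it only without L1L2-FF replicate 2 (up to 0.152 in the others).

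Unsaturated fatty acids need isomerases and reductases that move or remove double bonds before the spiral can go on. Of the 4 genes of these enzymes, 2 were lower, against 7.18% of all genes tested. *Eci1*, the mitochondrial enoyl-CoA isomerase, had 183, 144 and 218 CPM in L1L2-FF and 95.2, 117 and 100.4 CPM in L1L2-AKO (log2 fold change -0.80 ± 0.169, adjusted p = 0.0163). *Eci2*, an isomerase found in mitochondria and peroxisomes, had 85.0, 75.7 and 87.7 CPM in L1L2-FF and 60.0, 60.9 and 62.1 CPM in L1L2-AKO (log2 fold change -0.44 ± 0.104, adjusted p = 0.0248). The groups did not overlap for either isomerase, and the 3 L1L2-AKO libraries were nearly level for *Eci2*. *Decr1*, the mitochondrial dienoyl-CoA reductase, ranged from 286 to 496.5 CPM and from 237 to 267.5 CPM and missed the threshold (log2 fold change -0.67 ± 0.200, adjusted p = 0.0556). It passed in 5 of 14 alternatives, namely library size alone, upper-quartile scaling, DESeq2's test, no filter and without L1L2-FF replicate 2 (adjusted p = 0.00588 to 0.172 over the left-out fits). Its peroxisomal counterpart *Decr2* overlapped, at 19.8 to 26.0 CPM and 19.0 to 21.9 CPM (log2 fold change -0.21, adjusted p = 0.372). *Eci1* lost its call without L1L2-FF replicate 1, L1L2-AKO replicate 1 or L1L2-AKO replicate 3 (adjusted p up to 0.0702), and *Eci2* lost it without L1L2-FF replicate 1 or any L1L2-AKO library (up to 0.104).

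**Figure D2:**
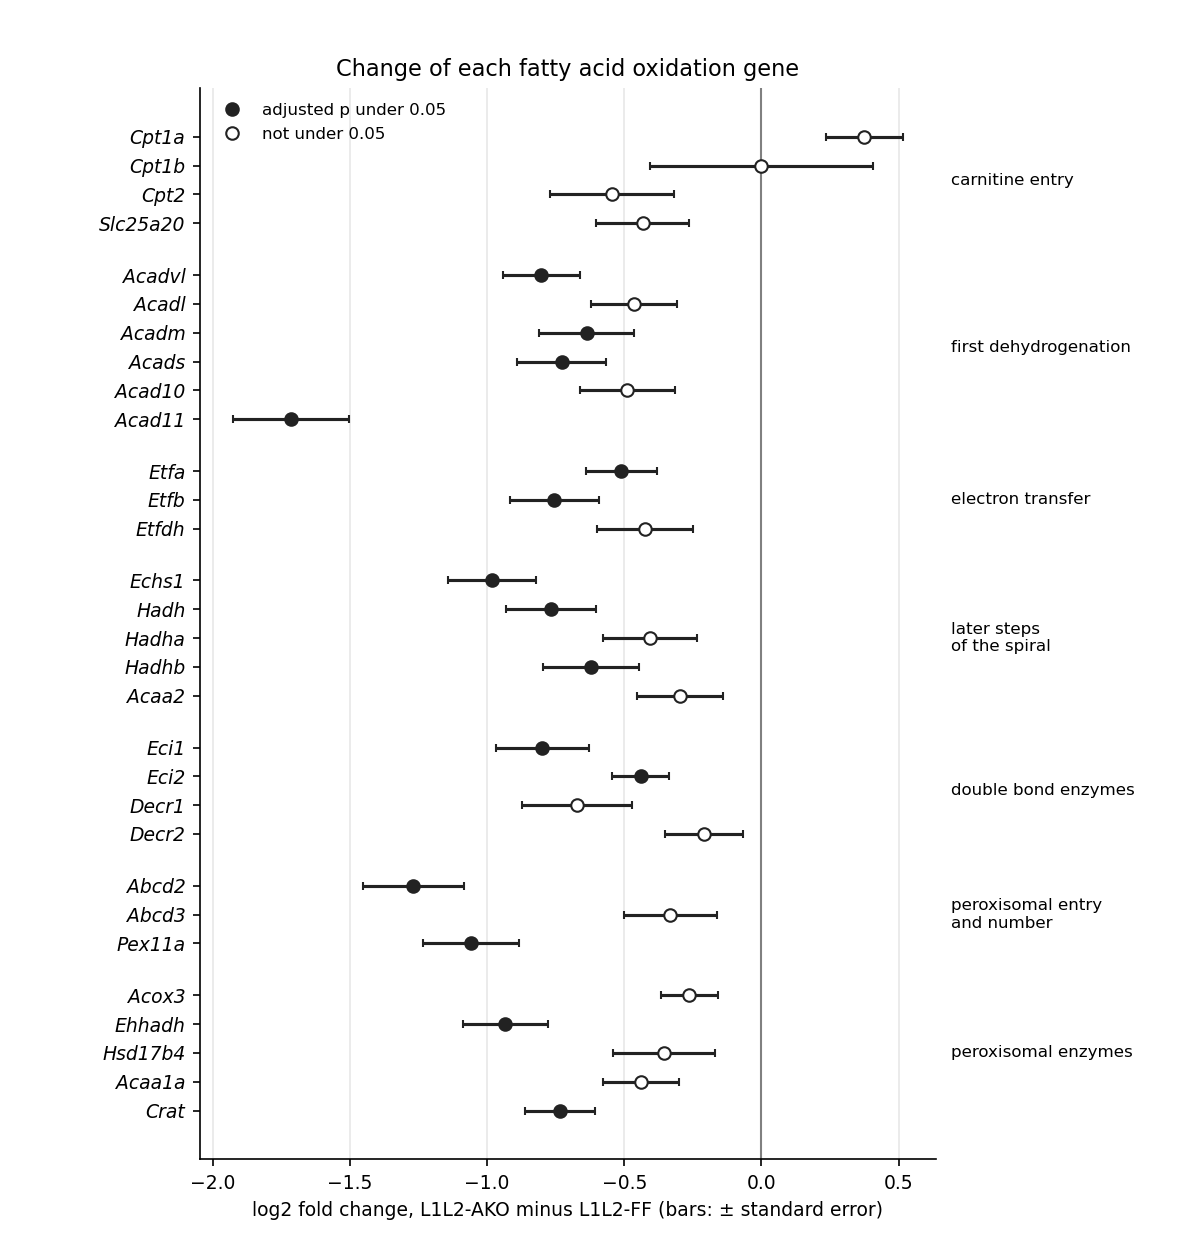
Log2 fold change of each of the 30 genes, L1L2-AKO minus L1L2-FF, with bars of ± 1 standard error from edgeR's fit and filled circles for genes past the threshold. The 15 filled circles all lie below 0, from -0.44 for *Eci2* to -1.71 for *Acad11*. None of the 4 genes of carnitine entry is filled, although *Cpt2* lies at -0.54 and *Slc25a20* at -0.43.

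The genes for peroxisomal entry and peroxisome number held the next largest falls. *Abcd2* (chr15:91145871-91191799), a transporter of very long-chain and polyunsaturated acyl-CoAs into peroxisomes that is well known in white fat, had 667, 746 and 661 CPM in L1L2-FF and 233, 267 and 360 CPM in L1L2-AKO. Its log2 fold change was -1.27 ± 0.184 (adjusted p = 0.00342), and L1L2-AKO replicate 3 lay above the other L1L2-AKO libraries but far below the controls. Unlike most of the 30 genes, *Abcd2* was highest in L1L2-FF replicate 2. *Abcd3*, the transporter of branched and dicarboxylic acyl-CoAs, overlapped between the genotypes at 133 to 208 CPM and 122 to 137 CPM (log2 fold change -0.33 ± 0.170, adjusted p = 0.230). Per length of exon, *Abcd2* stood at 4.71, 6.21 and 3.53 times *Abcd3* in L1L2-FF and at 1.90, 2.17 and 3.27 times in L1L2-AKO, without overlap (exact two-sided permutation p = 0.1, the smallest possible). All 3 of these ratios between genes were chosen with the values of the genes known, so their p-values are no evidence of a difference.

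*Pex11a* (chr7:79735957-79743131), which promotes the elongation and division of peroxisomes, had 58.1, 48.9 and 76.0 CPM in L1L2-FF and 32.9, 27.5 and 27.4 CPM in L1L2-AKO. The groups lay apart, and the log2 fold change of -1.06 ± 0.175 (adjusted p = 0.00591) corresponds to 48.0% of the L1L2-FF level. Both on the minus strand, the 3′ end of *Pex11a* lies 3053 bases from the annotated start of *Plin1*, a lipid droplet coat gene named here for its position after its values were seen, which had 1242 to 1719 CPM in L1L2-FF and 726 to 1078 CPM in L1L2-AKO (log2 fold change -0.65 ± 0.210, adjusted p = 0.0700).

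Among the peroxisomal enzymes, 2 of 5 genes were lower, against 7.18% of all genes tested. *Ehhadh* (chr16:21761287-21787807), the bifunctional enzyme that handles straight-chain and dicarboxylic substrates, had 65.1, 55.8 and 81.3 CPM in L1L2-FF and 38.8, 32.9 and 34.1 CPM in L1L2-AKO (log2 fold change -0.93 ± 0.155, adjusted p = 0.00601). *Crat*, which makes acetylcarnitine in peroxisomes and mitochondria, had 341, 318 and 388 CPM in L1L2-FF and 221, 200 and 208.5 CPM in L1L2-AKO (log2 fold change -0.73 ± 0.127, adjusted p = 0.00727). Neither gene overlapped between the genotypes. The other bifunctional enzyme, *Hsd17b4*, which also serves branched chains and bile acid precursors, did overlap, with 301, 222 and 363 CPM in L1L2-FF and 242, 207 and 242 CPM in L1L2-AKO (log2 fold change -0.36 ± 0.186, adjusted p = 0.244, and 0.0442 without L1L2-FF replicate 2). *Acaa1a*, a peroxisomal thiolase, had 122, 100.3 and 138 CPM in L1L2-FF and 91.2, 81.7 and 92.7 CPM in L1L2-AKO (log2 fold change -0.44 ± 0.139, adjusted p = 0.0675). It passed in 4 of 14 alternatives, namely library size alone, upper-quartile scaling, DESeq2's test and without L1L2-FF replicate 2 (adjusted p = 0.0192 to 0.2275 over the left-out fits). *Acaa1a* shares 12.4% of its 50-base stretches with *Acaa1b*, whose log2 fold change was -0.66 without passing the threshold. *Acox3*, an oxidase of branched acyl-CoAs, was low and varied little, at 40.5 to 43.9 CPM and 32.8 to 37.0 CPM, and its log2 fold change of -0.26 ± 0.104 did not pass (adjusted p = 0.130).

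By compartment, 9 of 19 mitochondrial genes, 3 of 8 peroxisomal genes and all 3 genes of both compartments (*Acad11*, *Eci2* and *Crat*) were lower. The share over all genes tested was 7.18%. The median log2 fold changes of the 3 compartments were -0.54, -0.40 and -0.73. In the order of levels per length of exon (TPM computed here from exon lengths), *Acadl* led at 1142 ± 114.5 in L1L2-FF (mean ± SD, n = 3), followed by *Acaa2* at 899.5 ± 110 and *Etfb* at 787 ± 108. The last pair differed by less than the sum of their SDs. *Acadl*, *Acaa2*, *Acadm* and *Hadh* kept their ranks of 1, 2, 5 and 6 in L1L2-AKO, where *Acadl* stood at 882.5 ± 90.4. *Abcd2* went from rank 7, at 340 ± 42.6, to rank 13, at 148 ± 21.8, and *Cpt1a* from rank 24, at 48.9 ± 8.65, to rank 19, at 67.0 ± 6.51. The next ranks in L1L2-AKO, *Slc25a20*, *Acaa1a* and *Abcd3*, stood at 62.3 ± 10.6, 62.1 ± 5.85 and 62.0 ± 8.39. The rank of *Cpt1a* in L1L2-AKO is thus not apart from these. *Cpt1b* was last in both genotypes, under 1 TPM on average. The level of a member in counts ranged from 20 in *Cpt1b* to 33208, and every count of the other 29 genes was at least 533.

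The L1L2-FF libraries themselves differed over these genes. L1L2-FF replicate 3 was the highest of the 3 controls for 24 of the 30 genes, against 36.1% of all genes tested, and L1L2-FF replicate 2 was the lowest for 24, against 36.8%. The 30 general mitochondrial genes (import, chaperones, fusion and carriers) had the same order, with L1L2-FF replicate 3 highest for 28 and L1L2-FF replicate 2 lowest for 23. L1L2-FF replicate 3 was also the highest control for 7 of the 10 brown or beige markers, whose part in this order was not tested. The coefficient of variation within a genotype over the 30 genes had medians of 18.8% (L1L2-FF) and 7.91% (L1L2-AKO) and was higher in L1L2-FF for 26 of them. Over all genes tested the medians were 16.3% and 12.8%, with L1L2-FF the higher for 60.6%, and over the general mitochondrial genes they were 17.5% and 5.80%. The 6 genes that gained a call without L1L2-FF replicate 2 were *Cpt2*, *Acadl*, *Decr1*, *Etfdh*, *Hsd17b4* and *Acaa1a*.

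**Figure D3:**
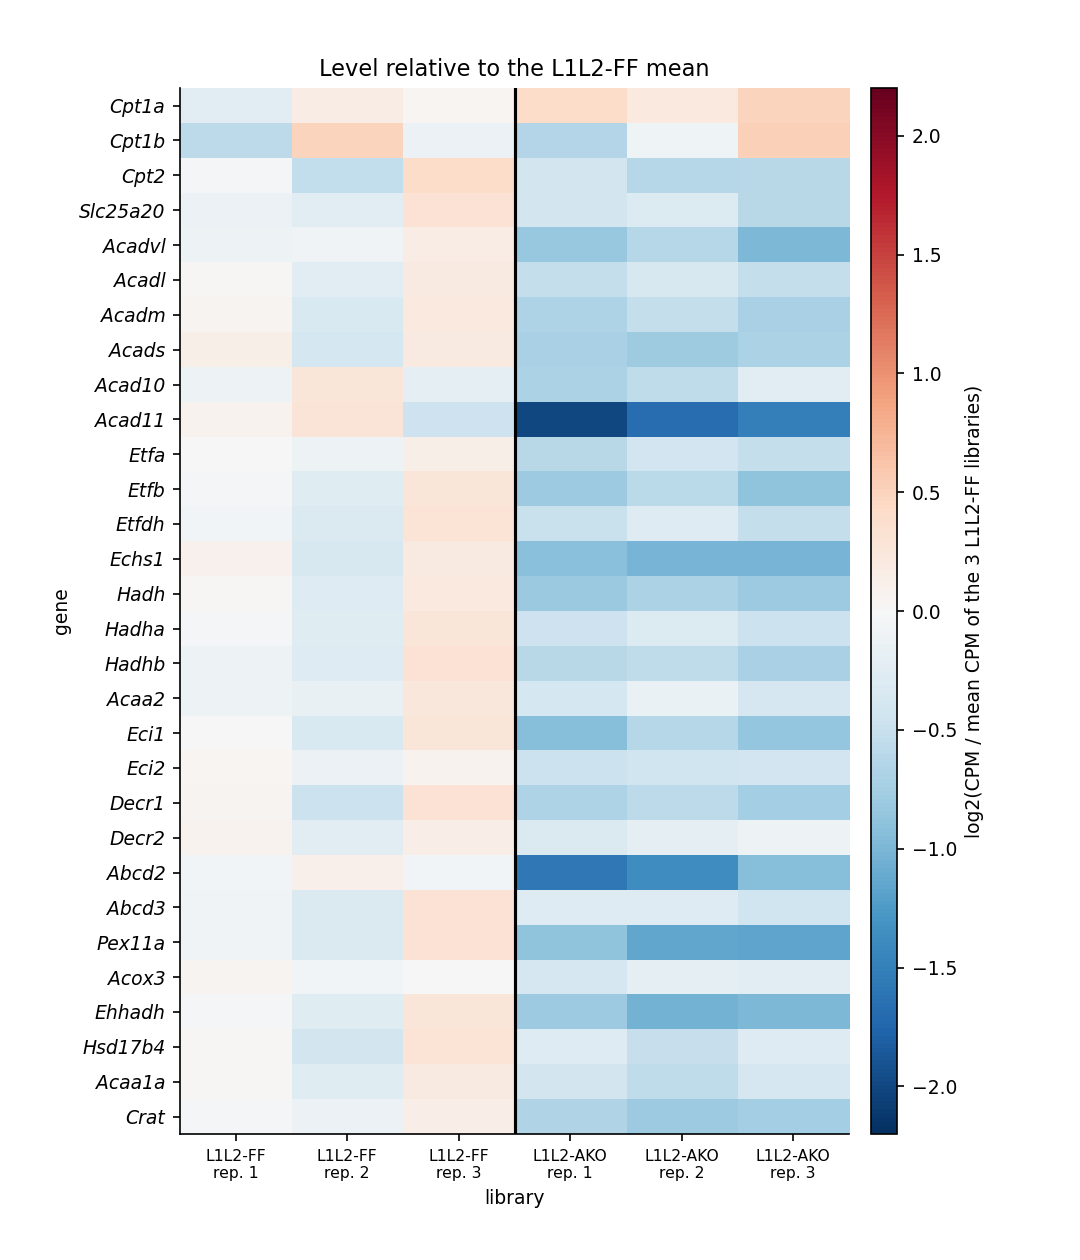
Level of each of the 30 genes (rows) in each of the 6 libraries (columns), as log2 of its CPM over the mean CPM of the 3 L1L2-FF libraries, with blue below and red above that mean. L1L2-FF replicate 3 is the highest control for 24 genes, replicate 2 is the lowest for 24, and *Acad11* and *Abcd2* are the darkest rows in L1L2-AKO.

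Other genes of the mitochondrial pathway, from a list of 39 with 37 tested, included 19 lower and 3 higher genes. The shares over all genes tested were 7.18% lower and 9.28% higher. The median log2 fold change of the list was -0.55. *Acsl1*, the main enzyme that activates long-chain fatty acids in fat, had 3139, 2635 and 3733 CPM in L1L2-FF and 1246, 886 and 1139 CPM in L1L2-AKO, a log2 fold change of -1.54 ± 0.214 (adjusted p = 0.00294). *Acsm5*, of the medium-chain activating family, had the largest fall of the list, from 4.22 to 9.13 CPM in L1L2-FF to 0.254 to 0.873 CPM in L1L2-AKO (log2 fold change -3.70 ± 0.469, adjusted p = 0.00208). *Acss1*, which activates acetate in mitochondria, had a log2 fold change of -1.25 ± 0.188 (adjusted p = 0.00409) and *Mcee*, an epimerase of the route that takes up propionyl-CoA from odd chains, one of -1.17 ± 0.128 (adjusted p = 0.00119). None of these 4 genes overlapped between the genotypes.

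Other peroxisomal genes, from a list of 43 with 41 tested, included 15 lower and 2 higher genes (7.18% and 9.28% over all genes tested). Their median log2 fold change was -0.48. *Hacl1*, which splits branched acyl-CoAs in alpha-oxidation, fell from 44.6 to 97.4 CPM to 25.4 to 30.0 CPM (log2 fold change -1.42 ± 0.258, adjusted p = 0.00878). *Eci3*, a further enoyl-CoA isomerase, *Acot4*, a thioesterase, and *Slc27a2*, a very long-chain acyl-CoA synthetase, had log2 fold changes of -2.93, -2.098 and -2.05 (adjusted p = 0.00524, 0.0137 and 0.0250), all at low levels and with at most 10.8 CPM in any library. In the L1L2-AKO libraries, *Eci3* had only 9, 7 and 2 counts and *Slc27a2* only 6, 11 and 3. The call of *Acot4* was lost without L1L2-AKO replicate 2 (adjusted p = 0.0626), and that of *Slc27a2* without any of 4 single libraries (up to 0.0912). *Pex5l*, a relative of the peroxisomal import receptor that is best known from the brain, rose from 1.29 to 2.57 CPM to 11.7 to 28.4 CPM (log2 fold change 3.48 ± 0.387, adjusted p = 0.00125).

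Regulators of fatty acid oxidation, 30 of 32 tested, included 9 lower and 1 higher gene (7.18% and 9.28% over all genes tested). Their median log2 fold change was -0.36. *Ppara*, the nuclear receptor best known for switching on this pathway, had 14.0, 20.8 and 16.1 CPM in L1L2-FF and 9.17, 10.3 and 8.87 CPM in L1L2-AKO (log2 fold change -0.84 ± 0.180, adjusted p = 0.0170). *Pparg*, its adipocyte relative, had 384, 362 and 379 CPM in L1L2-FF and 264, 239 and 246 CPM in L1L2-AKO (log2 fold change -0.59 ± 0.115, adjusted p = 0.0123). Neither overlapped between the genotypes. *Ppara* lost its call without L1L2-AKO replicate 2 or 3 (adjusted p up to 0.0700), and *Pparg* without L1L2-FF replicate 1, L1L2-AKO replicate 2 or L1L2-AKO replicate 3 (up to 0.0697). *Ppard* and the coactivators *Ppargc1a* and *Ppargc1b* did not pass the threshold, with log2 fold changes of -0.29, -0.64 and -0.38 (adjusted p = 0.182, 0.114 and 0.150), nor did the orphan receptor *Esrra*, at -0.31 (adjusted p = 0.274). Among the genes past the threshold, the largest falls of the list were in *Nrip1*, a corepressor of oxidative genes, in *Rxrg*, a partner of the PPARs, and in *Lpin1*, a phosphatidate phosphatase and coactivator. Their log2 fold changes were -1.17 ± 0.156, -1.09 ± 0.171 and -1.005 ± 0.223 (adjusted p = 0.00243, 0.00493 and 0.0198). *Lpin1* lost its call without L1L2-FF replicate 1, L1L2-AKO replicate 2 or L1L2-AKO replicate 3 (adjusted p up to 0.0573). *Pprc1*, of the same coactivator family as *Ppargc1a*, rose from 22.5 to 29.3 CPM to 39.7 to 45.5 CPM (log2 fold change 0.73 ± 0.132, adjusted p = 0.00858).

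Malonyl-CoA, which holds back carnitine entry at CPT1, is made by the carboxylases *Acaca* and *Acacb* and removed by *Mlycd*. *Acacb*, the form at the mitochondrial surface, had 62.1, 70.9 and 89.9 CPM in L1L2-FF and 44.1, 47.7 and 42.9 CPM in L1L2-AKO (log2 fold change -0.73 ± 0.149, adjusted p = 0.0144). *Mlycd* had 35.0, 37.9 and 43.3 CPM in L1L2-FF and 26.8, 29.6 and 27.1 CPM in L1L2-AKO (log2 fold change -0.48 ± 0.120, adjusted p = 0.0314). *Acacb* and *Mlycd* thus both fell, without overlap. *Acacb* lost its call without L1L2-AKO replicate 2 or 3 (adjusted p up to 0.0651), and of the left-out fits *Mlycd* kept it only without L1L2-FF replicate 2 (up to 0.114 in the others). *Acaca* varied within each genotype, with 358, 178.5 and 643 CPM in L1L2-FF and 311, 108.5 and 154 CPM in L1L2-AKO (log2 fold change -1.04 ± 0.503, adjusted p = 0.209).

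General mitochondrial genes, which serve the organelle outside this pathway, were counted for comparison. Of the 30 tested, 0 were higher and 4 lower, with a median log2 fold change of -0.24 and summed levels of 5920 to 8897 CPM in L1L2-FF and 5602 to 5811 CPM in L1L2-AKO. Over all genes tested, 9.28% were higher and 7.18% lower. The 4 lower genes were *Mfn2* and *Opa1*, which fuse mitochondrial membranes, *Timm44* of the import motor and the protease *Lonp1*, with log2 fold changes of -0.74, -0.45, -0.55 and -0.45. Of 14 alternatives, *Opa1* lost its call in 8 and *Lonp1* in 7, both with DESeq2's size factors, without the filter and in 5 of 6 left-out fits (adjusted p up to 0.170 and 0.160 there). *Timm44* lost it without L1L2-AKO replicate 2 or 3 (adjusted p up to 0.0529) and *Mfn2* without L1L2-AKO replicate 2 (0.0647). The difference between the medians of this list and of the oxidation genes was not tested.

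**Figure D4:**
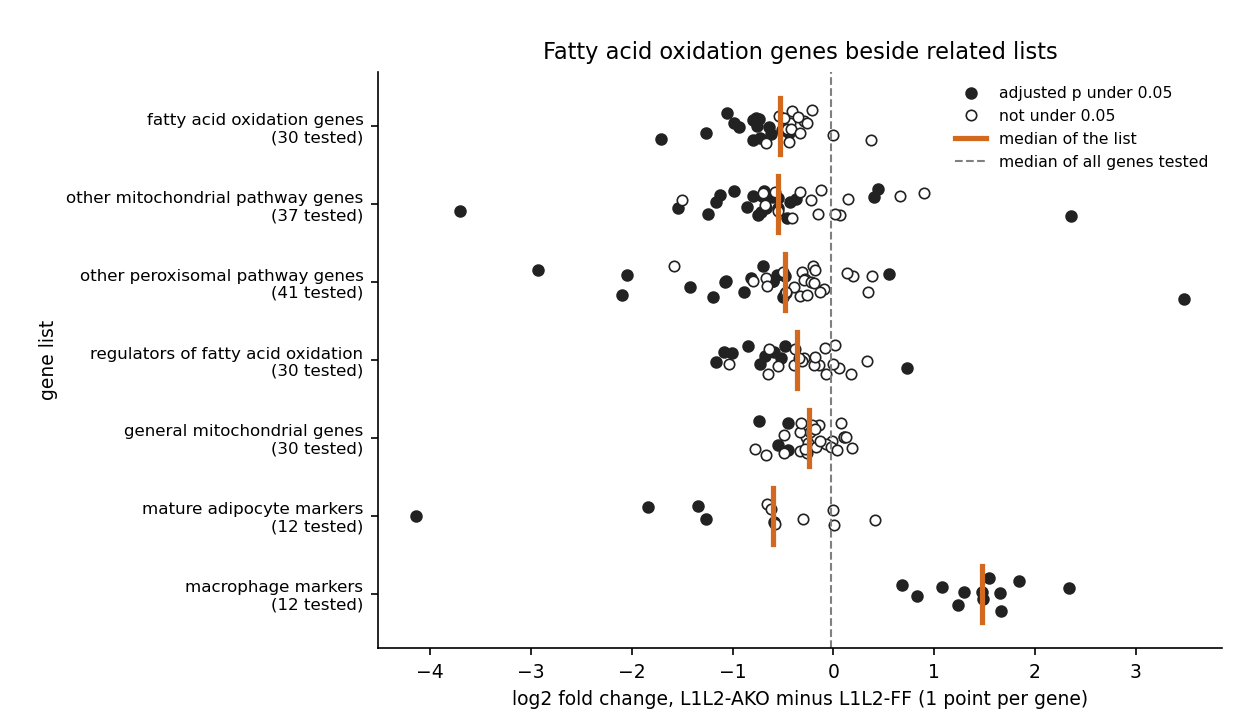
Log2 fold change of each tested gene, L1L2-AKO minus L1L2-FF, for the 30 fatty acid oxidation genes, 4 related lists and 2 marker lists, with 1 point per gene, filled where the gene passed the threshold, an orange bar at the list's median and a dashed line at the median of all genes tested. The medians are -0.53 for the oxidation genes, -0.55, -0.48, -0.36 and -0.24 for the related lists in the order drawn, -0.60 for mature adipocyte markers and 1.48 for macrophage markers.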

How the data were processed

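RNA was sequenced as paired ends on a BGISEQ-500 in 6 libraries of floated adipocytes, 3 per genotype. With mm10 as the genome, the authors aligned with HISAT2 2.1.0, sorted with SAMtools, ran StringTie 1.3.5 and deposited raw counts per gene symbol, without normalization. The gene annotation, the counting program and its strand setting are not given in the sources used here, so reads of overlapping genes and of near-identical copies cannot be traced.

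The libraries were grouped by the submitters' labels. The 30 genes and all other lists were chosen with earlier results of these data known. Genotypes were compared on the counts as deposited in R 4.3.3 with edgeR 4.0.16 (filterByExpr with a minimum count of 10 and a minimum total of 15, which kept 15674 genes; TMM; quasi-likelihood test, two-sided; Benjamini-Hochberg over all tested genes; threshold 0.05). Each standard error is the size of the log2 fold change over the square root of its F statistic. P-values measure the spread between 3 pools per genotype. Total counts of 30548473 to 32107917 leave every gene of the list but *Cpt1b* far above counting noise. TPM was computed from exon lengths in GENCODE's annotation of mm10, which held 36961 of the 37384 symbols, and the shares of 50-base stretches come from the same annotation. Promoter sequences are RefSeq's (GRCm38.p6). Alternatives were run with DESeq2 1.42.0 and limma 3.58.1, and tables and plots were made with pandas 2.3.3 and matplotlib 3.10.9.

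All 30 genes are reported, with values in every library for those past the threshold and for the 2 others of highest level per length in each compartment. Of each further list, up to 5 changed genes are named by size of change, and *Acsl1*, *Acaca*, *Acacb*, *Mlycd*, the PPAR genes, *Ppargc1a*, *Ppargc1b* and *Esrra* in any case; some genes drawn by this rule are not reported here. *Cpt1a*, *Plin1* and the genes in the last section were named after their values were seen.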

Additional observations from a re-analysis of the deposited data

How the results depend on the processing

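Under 14 alternatives (DESeq2's size factors, library size alone or upper-quartile scaling, DESeq2's Wald test, limma-voom, a minimum total count above 0 in place of the filter, a minimum of 10 in each library, the replicate block, and each of 6 libraries left out), 7 of the 15 lower genes kept their call throughout (*Acadvl*, *Acad11*, *Echs1*, *Ehhadh*, *Abcd2*, *Pex11a* and *Crat*) and none of the 15 changed sign. Of 420 pairs of a gene and an alternative, 364 kept direction and side of the threshold, 36 lost the call, 14 gained it and 6 changed sign. All 6 were *Cpt1b*, with log2 fold changes of 0.00838 with DESeq2's size factors, 0.00968 with DESeq2's test, 0.00577 without the filter, and, leaving out 1 library at a time, 0.325 (L1L2-FF replicate 2), 0.245 (L1L2-AKO replicate 1) and 0.0477 (L1L2-AKO replicate 2), with -0.337 as the lowest of those fits. The cause was not tested beyond its counts of 20 to 43, which limit any statement on this gene. The number of lower genes on the list was 15 to 18 under the alternatives of scaling, test and filter and 7 to 21 with a library left out. With a library left out, all genes called numbered 1281 to 2845 (2580 with all 6), other mitochondrial genes called 11 to 24 (22) and other peroxisomal genes called 7 to 21 (17). The last 3 counts fell by over 1.5 times without L1L2-FF replicate 1, L1L2-AKO replicate 2 or L1L2-AKO replicate 3 (and that of other mitochondrial genes without L1L2-FF replicate 3), and fewer libraries entered each such fit.

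The genotypes share replicate numbers, but the libraries' deviations from their group means correlated at 0.188, 0.255 and -0.0544 for numbers 1, 2 and 3, and not every library correlated best with its own number, so the numbers were not taken to pair the libraries. With the replicate block, 12 genes of the list were lower (*Acadm*, *Hadhb* and *Etfa* lost their calls) and 2514 genes were called over all.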

Other observations

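The following genes were named after their values were seen. The 4 genes of the route that turns propionyl-CoA into succinyl-CoA were lower in L1L2-AKO and did not overlap between the genotypes. *Pcca* and *Pccb*, the subunits of the carboxylase, had log2 fold changes of -0.98 ± 0.249 and -0.72 ± 0.128 (edgeR, adjusted p = 0.0323 and 0.00796), *Mcee* the -1.17 given above, and *Mmut*, the mutase, -0.67 ± 0.132 (adjusted p = 0.0123). *Pcca* kept its call in 2 of 6 fits with a library left out, *Mmut* in 4, and *Pccb* and *Mcee* in all 6. *Phyh*, which starts the alpha-oxidation of phytanic acid ahead of *Hacl1*, had 152, 153 and 161 CPM in L1L2-FF and 57.8, 73.1 and 72.0 CPM in L1L2-AKO (log2 fold change -1.20 ± 0.125, adjusted p = 0.00097).

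The 3 genes of the peroxisomal route to ether lipids did not move one way. *Gnpat*, which acylates dihydroxyacetone phosphate, was lower (log2 fold change -0.60 ± 0.143, adjusted p = 0.0255), while *Far1*, which supplies the fatty alcohol, was higher at 59.7 to 63.8 CPM in L1L2-FF and 85.4 to 94.1 CPM in L1L2-AKO (log2 fold change 0.55 ± 0.0995, adjusted p = 0.00885). *Agps* lay above 0 without passing the threshold (log2 fold change 0.34 ± 0.107, adjusted p = 0.0631). The calls of *Gnpat* and *Far1* held in 1 and 4 of 6 fits with a library left out.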
